A study of Gallus gallus with 24 samples.

Results

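TGM2 and TIMP4 encode an enzyme and a protease inhibitor of the extracellular matrix, and their mRNA was followed in the abdominal fat of chickens from lines bred for high growth (HG) or low growth (LG). All spots of the array that the platform's annotation gave to either symbol were taken. This gave 3 of the 19200 spots, 2 of them for TGM2 and 1 for TIMP4, and thus 2 of the 6428 genes that had a symbol. Both genes had been chosen by their HG over LG ratios on these same arrays, so the size and the sign of those ratios are given as a description, without a test.

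Each of the 24 two-colour cDNA arrays set 1 HG cockerel against 1 LG cockerel of the same age, with 4 arrays at each of 6 ages, taken every 2 wk between 1 and 11 wk, and 48 birds in all. Both lines descended from a Bresse-Pile (meat-type) population and were bred apart for high or low body weight, so that each genotype is a single selected line and every allele that differs between the lines enters the ratio. All birds were fed cockerels. The HG birds were kept apart from the LG birds, whose feed was crushed, for the first 3 wk and with them afterwards. On the arrays of 1 and 3 wk rearing group and genotype cannot be told apart. Birds of the later ages had the same separate start, so early rearing and genotype cannot be told apart on any of the 24 arrays. The HG bird carried the red dye on replicates 2 and 4 of an age and the LG bird on replicates 1 and 3.

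Every value below is a log2 ratio of HG over LG on 1 array, after the array's median was set to 0. A negative value means less mRNA of that gene in the HG bird, and -1 means 2-fold less. That the deposited ratios ran red over green was taken as likely from the image software's definition and the dyes in the labels, and every sign rests on it. A ratio carries no level, so neither the abundance of TGM2 against TIMP4 nor the tissue label could be checked from expression levels. The fat cell genes ADIPOQ, FABP4 and PLIN1 gave ratios on all 24 arrays. So did 5664 of the 6184 genes fitted, the liver gene ALB among them, so this does not identify the tissue. In whole tissue, fewer cells of a type and less RNA per cell cannot be told apart.

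TGM2, transglutaminase 2, is a calcium-dependent enzyme that joins glutamine and lysine side chains of proteins and so cross-links matrix proteins such as fibronectin. It also binds GTP inside the cell and, at the cell surface, holds fibronectin to integrins. TIMP4 is a member of the tissue inhibitors of metalloproteinases, secreted proteins that block the enzymes which cut collagens and other matrix proteins. In fat, the matrix around each adipocyte is cut and rebuilt as the cell fills with lipid, which is the setting in which cross-linking enzymes and protease inhibitors are usually studied together.

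TGM2 mRNA was lower in HG than in LG on all 24 arrays. The ratio averaged -1.02 (SE 0.078, n = 24 arrays), a 2.03-fold lower level in HG, and single arrays lay between -1.77 and -0.12 with a median of -0.99. TIMP4 mRNA was lower in HG on 22 of 24 arrays. Its ratio averaged -1.20 (SE 0.13, n = 24), a 2.29-fold lower level in HG, and single arrays lay between -3.34 and 0.41 with a median of -1.29. The mean ratio of TIMP4 was thus the further from 0, although TIMP4 lay below TGM2 on only 13 of 24 arrays. The arrays of TIMP4 were spread more widely: the residual SD was 0.67 for TIMP4 and 0.393 for TGM2, against a median of 0.33 over all 6184 genes fitted. The residual SD is the spread left once age and dye were fitted. Each SE of a mean ratio was made in limma from that spread, drawn partly toward the spread of all genes.

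At 1 wk TGM2 stood at -0.12, -0.88, -0.63 and -0.95 on replicates 1 to 4, a mean of -0.65 (SD 0.377, n = 4) or 1.56-fold less in HG. At 3 wk it stood at -1.08, -0.97, -0.22 and -1.42, a mean of -0.92 (SD 0.504) or 1.89-fold less. Both ages held 1 array on which the lines were almost alike, replicate 1 at 1 wk and replicate 3 at 3 wk, and on both of these the LG bird carried the red dye. At 5 wk TGM2 stood at -1.77, -1.42, -1.0 and -1.34, a mean of -1.39 (SD 0.317) or 2.61-fold less in HG. The 4 arrays of 5 wk all lay below those of 1 wk. At 7 wk the values were -0.37, -1.66, -1.34 and -0.88, a mean of -1.06 (SD 0.56) or 2.09-fold less. At 9 wk they were -0.53, -1.02, -0.54 and -1.70, a mean of -0.95 (SD 0.552) or 1.93-fold less, and at 11 wk -1.32, -1.52, -0.97 and -0.93, a mean of -1.19 (SD 0.283) or 2.27-fold less. In the order of the age means (1, 3, 9, 7, 11 and 5 wk, from the smallest difference between the lines to the largest), no neighbouring ages differed by more than 0.28 and the arrays of all 5 neighbouring pairs overlapped.

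**Figure D1:**
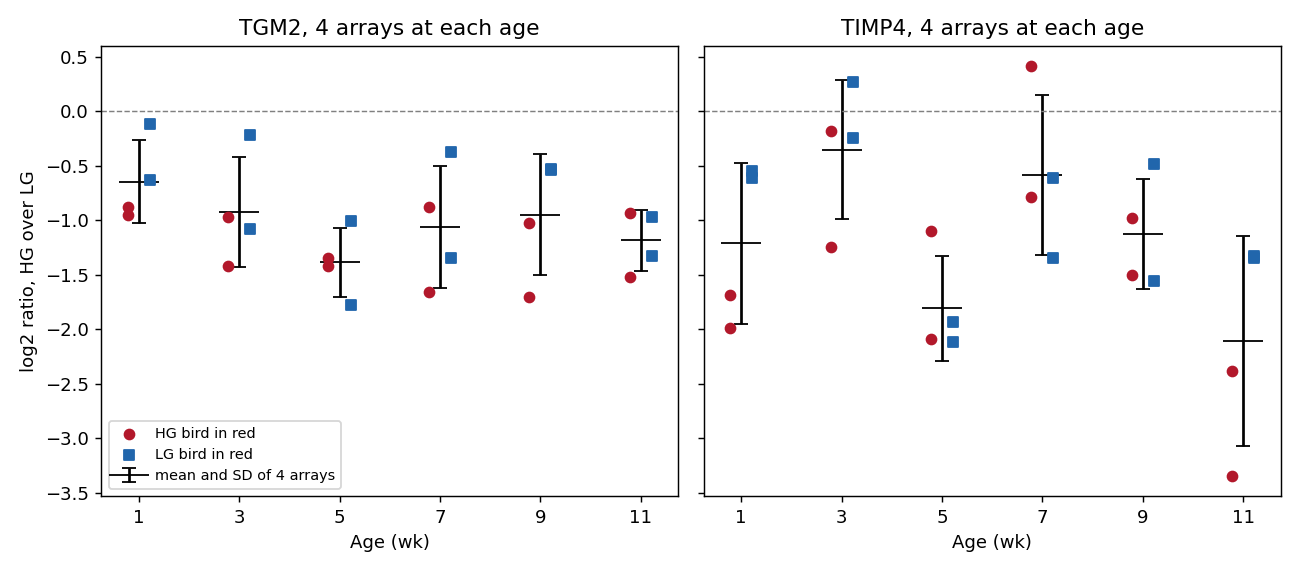
The log2 ratio of HG over LG (vertical axis) of TGM2 and TIMP4 on each array at 6 ages (horizontal axis, wk), with circles for arrays whose HG bird was in red, squares for arrays whose LG bird was in red, and a black bar with whiskers for the mean and SD of the 4 arrays of an age. All 24 values of TGM2 lie below 0, while TIMP4 lies above 0 on 1 array at 3 wk and 1 array at 7 wk and reaches -3.34 at 11 wk.

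At 1 wk TIMP4 stood at -0.61, -1.99, -0.55 and -1.69 on replicates 1 to 4, a mean of -1.21 (SD 0.738, n = 4) or 2.31-fold less in HG. At 3 wk it stood at -0.25, -0.18, 0.27 and -1.24, a mean of -0.35 (SD 0.637) or 1.28-fold less, the smallest difference of any age. Replicate 3 at 3 wk had more TIMP4 mRNA in the HG bird, and on that slide TGM2 was also close to equal. At 5 wk TIMP4 stood at -2.12, -1.10, -1.93 and -2.09, a mean of -1.81 (SD 0.479) or 3.50-fold less in HG. At 7 wk it stood at -0.61, 0.41, -1.34 and -0.79, a mean of -0.58 (SD 0.733) or 1.5-fold less. On replicate 2 of 7 wk TIMP4 was the higher in the HG bird, whereas TGM2 on that slide was at -1.66, among its lowest. At 9 wk TIMP4 stood at -1.55, -0.98, -0.48 and -1.50, a mean of -1.13 (SD 0.503) or 2.19-fold less, and at 11 wk at -1.35, -3.34, -1.33 and -2.39, a mean of -2.10 (SD 0.962) or 4.29-fold less. The order of the age means was 3, 7, 9, 1, 5 and 11 wk, again from the smallest difference between the lines to the largest. Neighbours differed by at most 0.60, against an SE of 0.474 for a difference between age means. That SE came from the residual SD of TIMP4 alone, without drawing on other genes. The arrays of all 5 neighbouring pairs overlapped, but those of 3 wk and 11 wk, the ends of the order, did not.

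The genes were chosen by the mean ratio over ages, with earlier results of these data known. A change of the ratio with age is a separate contrast, and it was tested for all genes with limma. The moderated F test over 5 terms of age gave TGM2 an unadjusted p of 0.174 and an adjusted p of 0.99997. For TIMP4 the unadjusted p was 0.0072 and the adjusted p was 0.811. Neither gene passed, and over all genes the interaction of genotype and age was called for 2 of 6184 (0.0323%), with 299 at an unadjusted p under 0.05. At the level of spots 0 of 16895 (0%) passed by limma, with 761 at an unadjusted p under 0.05. The linear trend of TGM2 was -0.035 per wk, with an adjusted limma p of 0.999, or a change of -0.35 between 1 and 11 wk (95% interval -0.83 to 0.13). That of TIMP4 was -0.08 per wk, with an adjusted limma p of 0.998, or a change of -0.80 between 1 and 11 wk (95% interval -1.60 to 0.0034). The trend was called for 0 of 6184 genes (0%), with 307 at an unadjusted p under 0.05 by limma. The uneven course of TIMP4, small at 3 and 7 wk and large at 5 and 11 wk, was not separated from the spread between birds once all genes were corrected for.

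The 2 TGM2 spots came from different cDNA clones, printed in blocks 10 and 39 of the array, so they measured the gene from the same RNA with separate probes. The block 10 spot averaged -0.92 (SE 0.071, residual SD 0.351), 1.89-fold less in HG, and ranged from -1.62 to -0.05. The block 39 spot averaged -1.13 (SE 0.099, residual SD 0.503), 2.19-fold less in HG, and ranged from -2.25 to -0.18. Both spots were below 0 on all 24 arrays. Their ratios had a correlation of r = 0.759 over the 24 arrays, and of 0.716 once the mean of each dye orientation had been removed. Among 1538 genes with exactly 2 spots measured on all arrays the median of that second correlation was 0.047, and TGM2 stood at the 97.2 percentile. This is given as a description, since the spots of an array share their RNA, dye and scan.

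The block 39 spot was the lower on 17 of 24 arrays. The mean difference, block 39 minus block 10, was -0.21 (SD 0.348), and a two-sided permutation test of 100000 sign changes over the arrays gave p = 0.00476. It compares 2 probes on the same RNA and is no test of a difference between the lines. The spots were furthest apart at 9 wk on replicate 4, where block 39 read -2.25 and block 10 read -1.15, and on replicate 2, where block 39 read -1.46 and block 10 read -0.59. TIMP4 was on a single spot, in block 4, so no second probe checks its ratios.

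**Figure D2:**
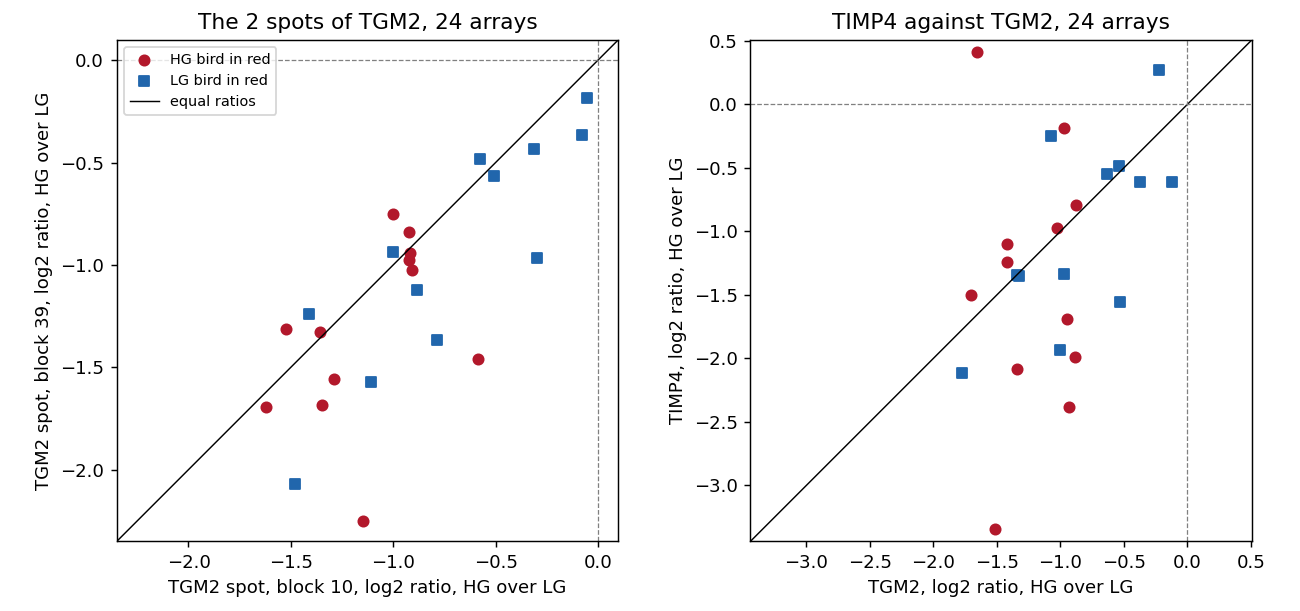
The log2 ratio of HG over LG on each of 24 arrays for the 2 TGM2 spots (left: block 10 on the horizontal axis, block 39 on the vertical axis) and for TGM2 and TIMP4 (right: TGM2 on the horizontal axis, TIMP4 on the vertical axis), with circles for the HG bird in red, squares for the LG bird in red and a line where both ratios are equal. The TGM2 spots lie along the line with r = 0.759 and mostly below it, while TGM2 and TIMP4 scatter more widely with r = 0.385.

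TGM2 and TIMP4 did not follow each other closely from bird pair to bird pair. Both were lower in HG on 22 of 24 arrays, and on the other 2 arrays TGM2 was the lower in HG and TIMP4 the higher. Both were at or below -1 on 9 arrays, while TGM2 was so on 12 arrays and TIMP4 on 14. Their correlation over 24 arrays was r = 0.385, or 0.319 with the dye orientation removed and 0.192 with age removed as well. In the order of 5663 genes by likeness to TGM2, TIMP4 took place 338. With dye removed, the 2 spots of a single gene had a median r of only 0.047 over 1538 genes. A low r on these arrays therefore cannot show that TGM2 and TIMP4 varied apart.

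The dye orientation moved with the size of the TGM2 ratio. With the HG bird in red, TGM2 averaged -1.22 (SD 0.316, n = 12), and with the LG bird in red it averaged -0.83 (SD 0.505, n = 12). The dye coefficient was -0.40 (SE 0.156), with an adjusted limma p of 0.0442 for the gene. At the spots it was -0.42 in block 10 (adjusted limma p 0.0191) and -0.38 in block 39 (adjusted limma p 0.126), against 49.1% of all 16895 spots called. For TIMP4 the means were -1.41 (SD 1.00, n = 12) with HG in red and -0.99 (SD 0.721, n = 12) with LG in red, a coefficient of -0.42 (SE 0.261) with an adjusted limma p of 0.201. Such an effect was common, being called for 2793 of 6184 genes (45.2%). TGM2 was lower in HG on all 12 arrays of each orientation and TIMP4 on 11 of 12 in each, and with equal numbers of both orientations the coefficient cancels in the mean. The call for TGM2 was lost on leaving out any of 14 single arrays, with adjusted p up to 0.0841.

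Among all genes TIMP4 had the 4th lowest mean ratio and TGM2 the 7th lowest of 6184. Both were chosen by such ratios on these arrays, so their places, SEs and array counts here are a description and not a test. Next to TIMP4 in that order stood HSD11B1B at -1.20 (SE 0.251, higher in HG on 3 of 23 arrays) and AVD at -1.09 (SE 0.283, higher on 9 of 24). Next to TGM2 stood PSPH at -1.04 (SE 0.398, higher on 5 of 24) and LOC417058 at -0.93 (SE 0.271, higher on 4 of 24). The SE of each of these 4 neighbours was larger than that of the member beside it, and each neighbour's mean differed from the member's by less than the neighbour's SE. Of the 5664 genes measured on all 24 arrays, TGM2 was the single gene lower in HG on every array, and 8 genes were lower on at least 22. On the other side 1 gene was higher in HG on every array, SCD, the desaturase that makes oleic acid, at 1.14 (SE 0.104).

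**Figure D3:**
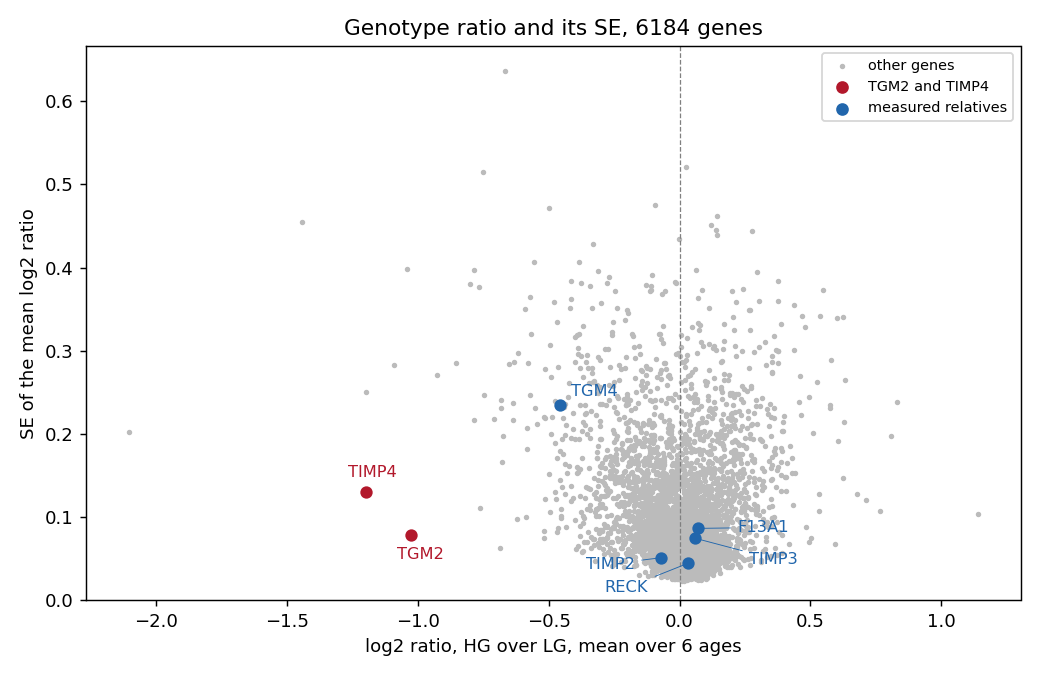
The mean log2 ratio of HG over LG over 6 ages (horizontal axis) and its SE (vertical axis) for 6184 genes (grey), with TGM2 and TIMP4 in red and the measured relatives of both in blue. TGM2 at -1.02 and TIMP4 at -1.20 lie left of the bulk of genes at SEs of 0.078 and 0.13, and all relatives but TGM4 at -0.46 lie close to 0.

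None of the measured relatives of TGM2 and TIMP4 passed the test for a difference between the lines in the mean over ages. Of the transglutaminase family, 2 other genes were measured. TGM4, a family member known in mammals from the prostate, had a ratio of -0.46 (SE 0.234, adjusted limma p 0.452) and was lower in HG on 18 of 24 arrays. Its means differed by age, at -1.34 (SD 1.43) at 1 wk, -0.13 (SD 0.056) at 3 wk and -0.03 (SD 0.648) at 5 wk. At 7 wk TGM4 stood at -1.34 (SD 0.306), at 9 wk at 0.23 (SD 0.985) and at 11 wk at -0.14 (SD 2.38). All arrays of 1, 3 and 7 wk were below 0, and the interaction was not called (adjusted limma p 0.99997). F13A1, the clotting factor subunit that cross-links fibrin, had a ratio of 0.07 (SE 0.086, adjusted limma p 0.796) over 3 spots. Among the TIMPs and RECK, a membrane-bound inhibitor of metalloproteinases, 3 other genes were measured. TIMP2 had a ratio of -0.07 (SE 0.051, adjusted limma p 0.649), TIMP3 one of 0.06 (SE 0.074, adjusted limma p 0.796) and RECK one of 0.03 (SE 0.044, adjusted limma p 0.824). The TIMP2 mean hid a disagreement, since 1 of its spots stood at -0.27 (SE 0.097) and the other at 0.13 (SE 0.042), neither of which passed (adjusted limma p 0.217 and 0.148). For the genotype effect 57 of all genes (0.922%) were called higher in HG and 69 (1.12%) lower, 126 of 6184 in all (2.04%), while 0 of these 5 relatives were called. At the level of spots, 165 of 16895 (0.977%) were called higher and 253 (1.5%) lower, 418 in all (2.47%).

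Genes of the matrix and its proteases, and of TGF-beta and retinoid signalling, were compared from lists of 11 groups, TGM2 and TIMP4 left out. Together these lists held 131 measured genes, of which 90 (68.7%) had a ratio above 0 and 41 below, against 57.3% above 0 over all genes, with a median of 0.04 against 0.02 over all genes. The genotype effect was called for 1 of the 131 (0.763%), against the 2.04% of all genes, and 0 passed the interaction or the trend. The called gene was CCDC80, a secreted matrix protein, at 0.62 (SE 0.147, adjusted limma p 0.0296), higher in HG on 21 of 24 arrays. That call was lost on leaving out any of 10 single arrays, with adjusted p up to 0.0602, and without the dye coefficient (adjusted limma p 0.0804).

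The metalloproteinases are the enzymes that TIMPs block. Of 17 measured, 12 had ratios above 0 and 5 below, with a median of 0.04, and 0 were called in either direction. The 2 furthest from 0 were ADAMTS10 at 0.52 (SE 0.262, adjusted limma p 0.432) and MMP10 at 0.15 (SE 0.189, adjusted limma p 0.796). MMP2, the gelatinase that cuts basement membrane collagen, stood at 0.05 (SE 0.036) and MMP9, the other gelatinase, at 0.01 (SE 0.067). Of the 3 measured genes tied to plasminogen, a further matrix protease, 0 were called, and the median was 0.08. SERPINE2, an inhibitor of plasminogen activators, stood at 0.08 (SE 0.108) and ANXA2, which binds plasminogen at the cell surface, at 0.11 (SE 0.049).

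Substrates and cell surface partners of TGM2 counted 15 measured genes, with 12 above 0, 3 below and a median of 0.07, and 0 were called. Fibronectin, FN1, which TGM2 binds with high affinity, stood at 0.03 (SE 0.09, adjusted limma p 0.913). This is the mean of 4 spots, whose agreement was not examined. The 2 furthest from 0 were VTN, vitronectin, at -0.36 (SE 0.136, adjusted limma p 0.249) and LRP1, an endocytic receptor, at 0.17 (SE 0.05, adjusted limma p 0.102). FBN1, fibrillin, stood at 0.17 (SE 0.046, adjusted limma p 0.0728).

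Collagens, the fibres that are cross-linked and cut, counted 20 measured genes, 15 above 0 and 5 below with a median of 0.07, and 0 were called. COL1A2, a chain of type I collagen, stood at 0.43 (SE 0.171, adjusted limma p 0.283) and COL4A6, a basement membrane chain, at 0.39 (SE 0.151, adjusted limma p 0.265). The enzymes and chaperones that modify and cross-link collagen by other routes counted 12, with 5 above 0, 7 below, a median of -0.03 and 0 called. Among them FKBP10, a collagen chaperone, stood at -0.44 (SE 0.233, adjusted limma p 0.472) and P4HA3, a subunit of prolyl hydroxylase, at -0.31 (SE 0.193, adjusted limma p 0.589). Of 28 matrix glycoproteins and proteoglycans, 22 were above 0 and 6 below, with a median of 0.05, and CCDC80 was the 1 called. After CCDC80 the member furthest from 0 was THBS2, thrombospondin 2, at 0.36 (SE 0.175, adjusted limma p 0.415). The 15 basement membrane genes had a median of 0.03 with 0 called, and COL15A1 at -0.11 (SE 0.198) and COL18A1 at 0.08 (SE 0.095) were the furthest from 0.

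TGF-beta and retinoic acid are both known to raise TGM2 transcription in mammalian cells, so genes of these pathways were listed as well. Of 13 measured TGF-beta genes, 7 were above 0 and 6 below, with a median of 0.01 and 0 called. SMAD3, which carries the signal to the nucleus, stood at -0.13 (SE 0.095) and SMAD1, which does so for the related BMPs, at 0.08 (SE 0.051). Of 14 retinoid genes, 10 were above 0 and 4 below, with a median of 0.03 and 0 called. LRAT, which esterifies retinol, stood at 0.14 (SE 0.462) over 20 arrays and BCO2, which cleaves carotenoids, at 0.13 (SE 0.047).

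**Figure D4:**
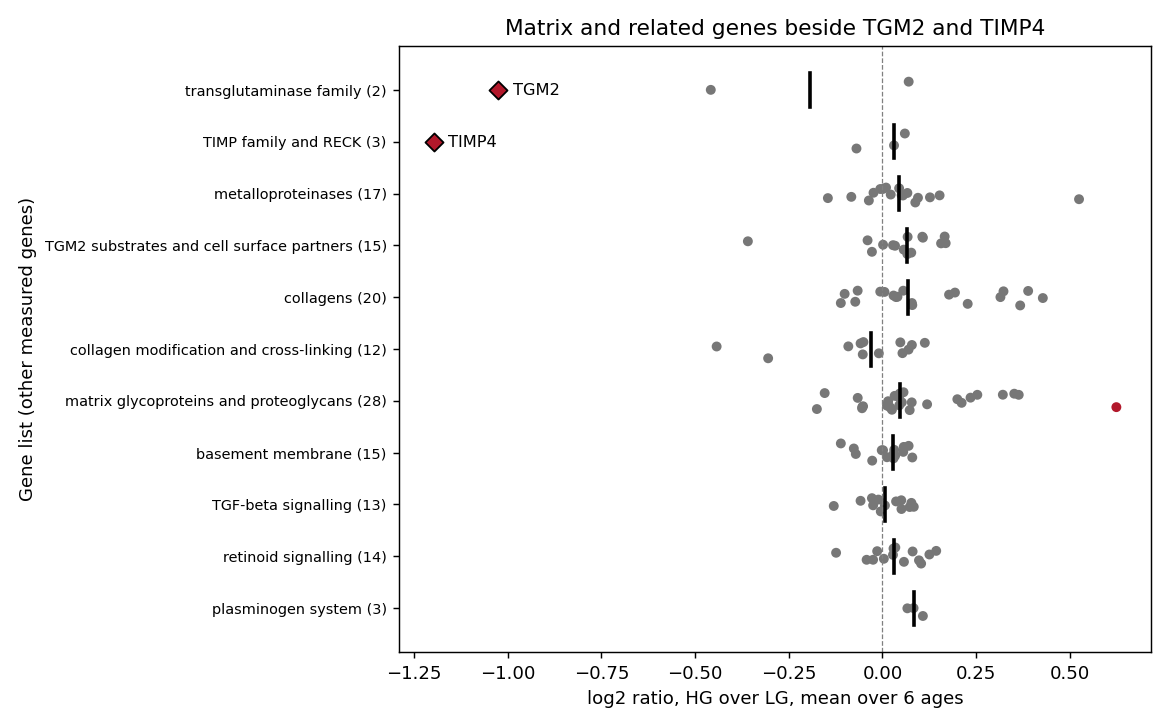
The mean log2 ratio of HG over LG over 6 ages (horizontal axis) for each measured gene (points) of 11 gene lists (vertical axis, with the number of other measured genes), with a black bar at the median of each list, red points for genes called at an adjusted p under 0.05 and diamonds for TGM2 and TIMP4, which were left out of the medians. The medians lie between -0.19 and 0.08, and CCDC80 at 0.62 is the single red point.

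Markers of the cells that fat tissue can hold were read beside TGM2 and TIMP4, with the shares over all genes as the background: 0.922% called higher, 1.12% called lower and 2639 of 6184 ratios below 0. Of 13 fat cell markers, 10 were above 0 and 3 below, with a median of 0.12. SCD at 1.14, FASN at 0.37 and DGAT2 at 0.33, enzymes of fat synthesis, were called higher in HG, and PNPLA2, the triglyceride lipase, was called lower at -0.76. The other markers were not called, among them ADIPOQ at 0.10 (SE 0.101), FABP4 at 0.05 (SE 0.109) and PLIN1 at 0.05 (SE 0.071). The FASN call was lost with 1 probe per gene, at 0.02 (adjusted limma p 0.819). With the dye coefficient of each gene removed, the median of the fat cell markers on single arrays ran from -0.62 to 0.53.

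Endothelium, in which TGM2 is abundant in mammals, had 15 measured markers, 5 above 0 and 10 below. Of these 0 were called, and their median was -0.03. The array medians of endothelium, with dye likewise removed, ran from -0.21 to 0.30. The 2 furthest from 0 were CDH5, the cadherin of endothelial junctions, at 0.21 (SE 0.109) and EMCN, a surface mucin, at -0.20 (SE 0.345). Smooth muscle and pericytes had 12 markers, 2 above 0 and 10 below, with a median of -0.06. The light chain MYL9 was called lower in HG, at -0.52 (SE 0.121, adjusted limma p 0.0296), and the smooth muscle myosin MYH11 stood at -0.33 (SE 0.264). The MYL9 call was lost on leaving out any of 9 single arrays, with values as deposited, without the dye coefficient, and with probes on at least 1 array of every age, where the ratio was -0.27 (adjusted limma p 0.235).

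Leukocytes had 13 markers, 5 above 0 and 8 below, with 0 called and a median of -0.03, and C1QC, a complement chain made by macrophages, stood at -0.35 (SE 0.135) and HCLS1 at 0.28 (SE 0.116). Mesothelium had 6 markers, 5 above 0 and 1 below, with 0 called, and WT1 stood at 0.20 (SE 0.216) and KRT7 at -0.10 (SE 0.047). Fibroblasts and preadipocytes had 10 markers, 9 above 0 and 1 below, with 0 called, led by COL1A2 and by DPT, dermatopontin, at 0.21 (SE 0.193). Red cells and thrombocytes had 3 measured markers with 0 called, with F13A1 and SLC4A1 at -0.07 (SE 0.035) furthest from 0. Skeletal muscle had 10 markers, 9 above 0 and 1 below, of which TTN stood at 0.39 (SE 0.332) and CASQ2 was called higher at 0.24 (SE 0.048). CASQ2 was higher in HG on 13 of 24 arrays, had a dye coefficient of -0.93, and lost its call without that coefficient (adjusted limma p 0.582).

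Of 13 hepatocyte markers, 1 was above 0 and 12 were below, with a median of -0.36. The 2 furthest from 0 were GC, the vitamin D binding protein, at -1.44 (SE 0.455, adjusted limma p 0.133, 22 arrays) and F2, prothrombin, at -0.75 (SE 0.515, adjusted limma p 0.618). ALB, albumin, stood at -0.51 (SE 0.278). APOA1 was the 1 called, at -0.25 (adjusted limma p 0.0347). That call was lost on leaving out any of 13 single arrays, with values as deposited, with printing blocks centred and without the dye coefficient, and with 1 probe per gene the ratio was -0.03 (adjusted limma p 0.756). Array medians were taken over the markers measured on all 24 arrays, with the dye coefficient of each gene removed, TGM2 and TIMP4 included. For hepatocytes this left 11 markers, GC not among them. Their array median had an r of -0.09 with TGM2 and of -0.11 with TIMP4. The same r was 0.32 with TGM2 and 0.34 with TIMP4 for endothelium, 0.34 and 0.38 for fat cells, and 0.36 and -0.05 for leukocytes. These are descriptions over arrays that share RNA and dye with the members, and the part of any cell type in the TGM2 and TIMP4 ratios was not tested.

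The genes whose ratios followed TGM2 most closely over the 24 arrays, dye orientation removed, were TBL3 (r = 0.676), C4A (r = 0.672), GPRC5C (r = 0.65), DRG2 (r = 0.647) and NOP16 (r = 0.643), of 5663 compared. With age removed as well, their r with TGM2 lay between 0.43 and 0.60. Of these genes, C4A, a complement component, was also called lower in HG, at -0.62 (SE 0.098, adjusted limma p 0.0012). The other 4 had means between -0.20 and -0.0026 that were not called. DRG2 was 1 of the 2 genes called for the interaction of genotype and age (adjusted limma p 0.0406), a call lost on leaving out any of 21 single arrays. The least alike were MAPK4 (r = -0.657) and AKR7A2 (r = -0.693).

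For TIMP4 the most alike were POMT2 (r = 0.817), EDNRA (r = 0.742), VLDLR (r = 0.728), MOG (r = 0.673) and LOC420965 (r = 0.672). With age removed as well, their r with TIMP4 lay between 0.53 and 0.76. POMT2, which starts the sugar chains of dystroglycan, was called lower in HG at -0.34 (SE 0.063, adjusted limma p 0.00583), on 21 of 24 arrays. EDNRA, an endothelin receptor, stood at -0.12 (SE 0.094) and VLDLR, a lipoprotein receptor, at -0.16 (SE 0.091), neither of which was called. The least alike were SLC12A4 (r = -0.626) and SPEG (r = -0.649). SLC12A4 was called higher in HG at 0.11 (SE 0.026, adjusted limma p 0.0407). That call was lost under 25 of 32 alternatives, 19 of them by leaving out 1 array. With printing blocks centred the ratio of SLC12A4 was 0.05 (adjusted limma p 0.556). These correlations are the extremes of many, over arrays that share their layout and scans, and are given as a description.

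The measured genes nearest to TGM2 and TIMP4 on their chromosomes were read from the order of protein-coding genes in a current chicken reference (GRCg7b), 3 on either side. This rule was added after the other values were known. For TGM2 these were LBP, BPIL3 and BPIFB2 on one side and TTI1, VSTM2L and CTNNBL1 on the other. For TIMP4 they were VGLL4, OGN and BGN on one side and PPARG, CNBP and ISY1 on the other. They lay 2 to 8 places from TGM2 and 1 to 16 places from TIMP4 in that order, and genes in between that were not fitted are not covered. Of the 12 genes 0 were called, against 2.04% of all 6184 genes, and their ratios lay between -0.12 and 0.25. At that share so few genes would mostly hold no call, so the count says nothing about these loci. PPARG, the fat cell transcription factor and the next protein-coding gene to TIMP4 in the reference, stood at 0.14 (SE 0.081, adjusted limma p 0.541).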

How the data were processed

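RNA of abdominal fat was hybridised to 24 Del-Mar 14 K spotted cDNA arrays. Per the labels and the study's methods, the authors scanned the arrays with GenePix, removed poor spots by hand and deposited a log2 ratio for each spot, taken here as red over green. These were not normalized, as array medians ran from -0.336 to 0.32. Values with no ratio (4.38%) or at the software's ceiling (0.475%) were set to missing, leaving 17380 to 18529 spots per array. Intensities were not used here, so dim spots could not be limited, LOWESS could not be repeated, and precision rests on the number of arrays. Arrays of one dye orientation had correlations of -0.1 to 0.495.

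The platform's annotation gave 10601 spots 1 symbol and 8599 spots none. The last 2 numbers of its identifiers were exchanged before matching. Named spots then lacked a ratio on 0.621 arrays on average and unnamed spots on 1.837, against 1.121 and 1.22 with the identifiers as given. Pairs of spots of the same gene had a mean r of 0.080 after the exchange and of 0.022 as given. Arrays were centred on their medians and turned to HG over LG. Probes needed 3 measured arrays at each age. This left 16895, which were averaged to 6184 genes where a symbol was known.

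Fits were made in limma 3.58.1 (R 4.3.3), with coefficients for genotype (mean over ages), 5 polynomial terms of age and dye. p-values were adjusted by Benjamini-Hochberg over all genes or probes, with a threshold of 0.05. The script was tested on simulated data. Members and lists were chosen with earlier results of these data known. Named genes were every measured relative, each list's called members and its 2 furthest from 0. Also named were the 5 most and 2 least alike, and neighbours in the order of ratios. ADIPOQ, FABP4, PLIN1, MMP2, MMP9, FN1, FBN1, ALB and PPARG were added after values were seen. The replicate number was not used as a block in the main fit. Same-numbered arrays had a median r of -0.07 over 60 pairs once age and dye were removed. They share a dye orientation, so removing dye itself lowers this r, and it cannot decide whether a block was needed.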

Additional observations from a re-analysis of the deposited data

Results flagged for a closer look

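Of 54 groups of 4 arrays examined at single ages, for the TGM2 spots, TGM2, TIMP4 and their relatives, 3 held an array set apart from the other 3 by more than Dixon's 95% critical value, and chance flags about 1 in 20. The block 10 spot of TGM2 read -1.15 on replicate 4 at 9 wk, against -0.59 to -0.51 on the other arrays of that age. TIMP2 read 0.39 on 1 array at 3 wk, against -0.22 to -0.13. TIMP3 read 0.022 on 1 array at 1 wk, against 0.49 to 0.55.

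The interaction of genotype and age was called for 2 genes, DRG2 (adjusted limma p 0.0406) and OASL (adjusted limma p 0.0406). The call was lost under 25 of 32 alternatives for DRG2 and 23 of 32 for OASL, 21 and 19 of them by leaving out 1 array, with adjusted p up to 0.99997 with 1 probe per gene. DRG2 averaged 0.83 (SD 0.212) at 1 wk and -1.20 (SD 0.746) at 5 wk, and OASL averaged 0.79 (SD 0.296) at 1 wk and -1.07 (SD 0.66) at 5 wk (n = 4 arrays each). TGM2 had its smallest difference at 1 wk and its largest at 5 wk, but was lower in HG at both ages. DRG2 and OASL were higher in HG at 1 wk. For TGM2 the interaction was not called (adjusted limma p 0.99997). OASL was named because it was called, outside the rule for named genes.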

How the results depend on the processing

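The mean ratio of TGM2 lay between -1.05 and -0.92 over 32 alternatives and that of TIMP4 between -1.27 and -1.12. Many of these could not move the means. Dye orientations were balanced and the spots complete, so dropping dye, blocking on replicate number or changing the arrays required left both means unchanged. With 1 probe per gene TGM2 stood at -0.92, and TIMP4, on a single spot, could not move. Values as deposited gave -0.99 for TGM2 and -1.17 for TIMP4, and array weights gave -1.01 and -1.12. Without 1 array at a time the ranges were -1.05 to -0.99 for TGM2 and -1.27 to -1.14 for TIMP4. Leaving out 1 array can shift such a mean only slightly, so these ranges are a description and not a test. Neither gene passed the interaction or the trend under any of the 32 (adjusted limma p at least 0.593 for TIMP4 and 0.899 for TGM2). With the replicate number as a block in place of dye, 106 genes were called for genotype, 48 higher and 58 lower. With that block, as without it, TGM2 and TIMP4 passed neither the interaction nor the trend. Genes called for genotype numbered 126, and 54 without the dye coefficient, and 95 to 152 without 1 array. The split of 57 higher and 69 lower became 63 and 32 with values as deposited, and 99 and 73 with array weights. The interaction was called for 2 genes, for 0 with values as deposited, without the dye coefficient, with array weights or with 1 probe per gene, and for 0 to 4 without 1 array. The trend was called for 0 to 1 genes without 1 array. The dye effect of TGM2 missed the threshold with array weights (adjusted limma p 0.0527). FASN stood at 0.02 with 1 probe per gene (adjusted limma p 0.819). A dye effect cannot be had from the fits without dye. The causes of these changes were not tested.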
